A study of Rattus norvegicus with 5 samples.

Results

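Lipoprotein handling was examined through 9 genes picked by symbol, out of 33014 in the authors' gene table: the carrier genes Apoe, Apod, Apoc1 and Clu, the lipid exporters Abca1 and Abcg1, the lipase gene Lpl, and the receptor genes Lrp1 and Vldlr. All 9 symbols were found. RNA came from dissociated dorsal root ganglia (sensory ganglia beside the spinal cord) of wild-type Sprague Dawley rats aged 10 postnatal days, taken from a litter of 10 pups. Cells were seeded at 5000 per well, given PBS at 1 day, and lysed after 8 days in culture, with 3 wells pooled per library. There were 5 libraries of polyA RNA in this single group, with no untreated, dosed or diseased group, so no value below is a response to anything. Nothing in the labels ties the libraries to separate animals or preparations, and spread between them may be technical. Levels are TPM, a length-corrected share of a library scaled to a total of 1000000. The libraries held between 21596608 and 27913098 estimated reads, and they contained RNA of every cell type in the wells, so fewer cells of a type and less RNA per cell cannot be told apart.

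Cells move cholesterol and phospholipid between one another on lipoprotein particles. Abca1 and Abcg1 are membrane pumps that load lipid from the cell onto acceptors, and apolipoprotein E is the main acceptor in nervous tissue, where it is made largely by glia and macrophages. Endocytic receptors such as Lrp1 and Vldlr bind apolipoprotein E and bring the particles into cells. Liver X receptors, which sense oxidised cholesterol, switch on Abca1, Abcg1 and Apoe, and in injured nerve Apoe and Apod are known for carrying lipid from degenerating myelin to regrowing axons.

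The sequence before the start of 3 of these genes is shown because they stand for the exporters and the carriers and hold different recognisable motifs. The sequences are from RefSeq on build GRCr8, whereas the submitters' processing notes name mRatBN7.2 for the quantification, and no position was converted between them. Each run is the 250 bases before an annotated transcription start, 5′ to 3′ on the strand of the gene. Abca1 lies at chr5:72596474-72596723 (minus strand), the Apoe window at chr1:88484700-88484949 (minus strand), and Apod at chr11:82935970-82936219 (plus strand). Capitals mark, for Abca1, a liver X receptor type repeat and a TATA box; for Apoe, 2 GC boxes; and for Apod, a TATA box.
Abca1: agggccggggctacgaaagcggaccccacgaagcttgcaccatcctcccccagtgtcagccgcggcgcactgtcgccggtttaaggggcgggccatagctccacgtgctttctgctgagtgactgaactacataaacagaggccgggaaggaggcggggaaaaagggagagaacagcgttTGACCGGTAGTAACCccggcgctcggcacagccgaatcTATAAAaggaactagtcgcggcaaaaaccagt
Apoe: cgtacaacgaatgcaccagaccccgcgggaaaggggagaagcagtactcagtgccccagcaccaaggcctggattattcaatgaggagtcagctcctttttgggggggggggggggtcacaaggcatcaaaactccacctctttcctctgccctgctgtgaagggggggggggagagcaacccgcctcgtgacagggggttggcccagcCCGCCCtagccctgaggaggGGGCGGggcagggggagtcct
Apod: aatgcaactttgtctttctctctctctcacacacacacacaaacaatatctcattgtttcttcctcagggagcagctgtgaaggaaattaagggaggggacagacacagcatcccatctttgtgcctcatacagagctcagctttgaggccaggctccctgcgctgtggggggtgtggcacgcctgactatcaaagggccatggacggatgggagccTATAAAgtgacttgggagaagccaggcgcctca

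Windows were listed for 6 of the 9 genes, with 9 windows in all because Apoe and Apoc1 have several starts; Abcg1, Clu and Lpl had none in the table. The Abca1 repeat, searched on both strands as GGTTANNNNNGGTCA, begins 70 bases before the start and was found in 0.0448% of all 33469 windows of that length. This pattern was written after the Abca1 sequence had been read, so it describes that window and tests nothing. The textbook liver X receptor repeat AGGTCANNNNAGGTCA was in none of the member windows and in 1 window of all. TATAAA was found before Abca1 and Apod, 32 and 33 bases ahead of the start, and in 12.9% of all windows. The GC box GGGCGG was in windows of Abca1, Apoc1, Apoe, Lrp1 and Vldlr, and in 30.5% of all windows. The E-box CACGTG, which reads the same on both strands, was in the Abca1 window alone among the members and in 5.59% of all windows. The marked matches do not overlap one another. The sterol response element TCACNCCAC and the myeloid PU.1 motif GAGGAAGT were in none of the member windows, against 0.974% and 2.04% of all windows. GC content was highest before Vldlr at 73.6% and Lrp1 at 68.8%, against a median of 51.2% over all windows.

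Every gene of the set was expressed in every library, with means from 5.46 TPM for Lpl to 9129 TPM for Apoe. All 9 reached 1 TPM in each library, a level reached by 41.3% of all genes in the table, and 7 of them reached 50 TPM in each library, against 9.81% of all genes. The set was listed with its levels known, so these counts only describe it. Below, a gene is called detected where it reached 1 TPM in every library, so a gene not detected may still hold reads. Together the 9 genes summed to 10232 ± 1167 TPM (SD, n = 5), and Apoe alone made up 89.1% of that sum on average, between 87.2% and 90.7% by library.

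**Figure D1:**
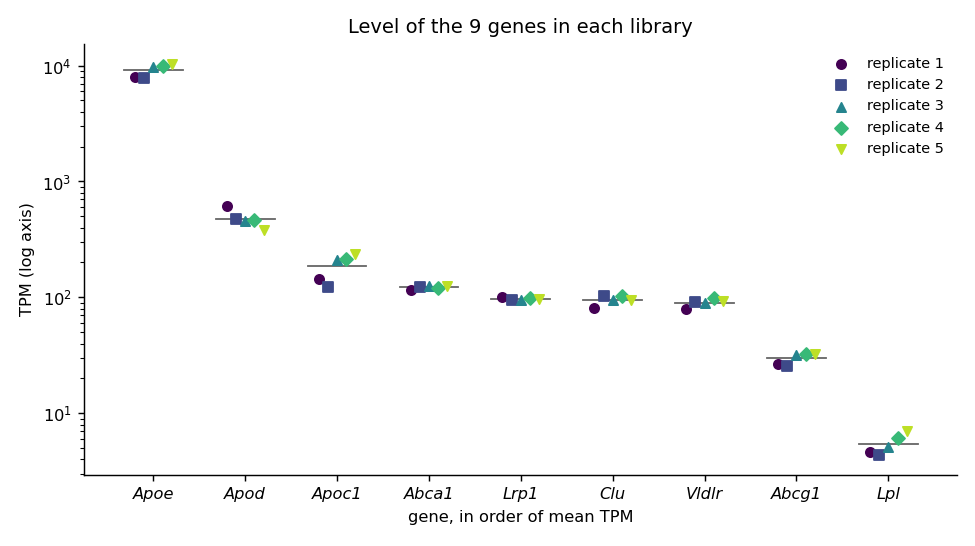
TPM of each gene (log axis) in the 5 libraries, 1 marker shape per replicate, with a grey line at the mean. Apoe lies between 7852 and 10409 TPM, Lrp1, Clu and Vldlr lie together between 79.4 and 103.6 TPM, and Lpl is lowest at 4.35 to 7.08 TPM.

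Among the carriers, Apoe stood far above the rest. Apoe was at 7927, 7852, 9628, 9828 and 10409 TPM in replicates 1 to 5, a mean of 9129 ± 1167 TPM (SD, n = 5) and the second highest of all genes in the table. Replicates 1 and 2 were low and replicate 5 was highest, 1.33 times the lowest. This level rested on 99228 to 149459 estimated reads per library, so counting error was at most 0.317% of the level.

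Apod, a lipocalin that carries small lipids such as arachidonic acid, had the next highest level and ran the other way. It was at 613, 472, 452, 461 and 381 TPM, a mean of 476 ± 84.7 TPM (SD, n = 5). Replicate 1 was highest and replicate 5, the highest library for Apoe, was lowest.

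Apoc1 encodes a small apolipoprotein that inhibits lipoprotein uptake and lipases. It was at 143, 124, 211, 215 and 239 TPM, a mean of 186 ± 49.998 TPM (SD, n = 5), with replicate 5 at 1.93 times replicate 2. Its transcript is short, so this TPM rested on only 308 to 636 estimated reads per library, a counting error of at most 5.70% of the level. Clu (clusterin, also called apolipoprotein J), a secreted chaperone and lipid carrier, was at 80.9, 103.6, 94.6, 103.4 and 94.5 TPM, a mean of 95.4 ± 9.28 TPM (SD, n = 5). Only replicate 1 lay below 90 TPM.

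The exporter genes differed about 4-fold in gene-level TPM. Abca1 was at 115, 123, 127, 121 and 126 TPM, a mean of 122 ± 4.64 TPM (SD, n = 5). Abcg1, which passes cholesterol on to particles that Abca1 has begun to load, was at 26.7, 25.7, 32.1, 32.3 and 32.7 TPM, a mean of 29.9 ± 3.38 TPM (SD, n = 5). Abcg1 was low in replicates 1 and 2, as Apoe was, while Abca1 stayed within a factor of 1.099 across libraries. The ratio of Abca1 to Abcg1 was 4.13 ± 0.427 (SD, n = 5). That ratio depends on transcripts without a gene name, which held 64.4% of the Abca1 TPM and none of the Abcg1 TPM. Named transcripts alone gave means of 43.5 TPM for Abca1 and 29.9 TPM for Abcg1, a much smaller difference.

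Lpl, which encodes the lipase that frees fatty acids from lipoprotein triglyceride, was the lowest of the set. It was at 4.61, 4.35, 5.07, 6.18 and 7.08 TPM, a mean of 5.46 ± 1.14 TPM (SD, n = 5), from 173 to 297 estimated reads per library. Replicate 2 was lowest and replicate 5 highest, with a counting error of up to 7.60% in the shallowest library for this gene.

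Of the receptors, Lrp1, a very large endocytic receptor with many ligands, was at 100.2, 94.9, 95.5, 99.2 and 97.3 TPM, a mean of 97.4 ± 2.28 TPM (SD, n = 5). Its highest library was 1.056 times its lowest, the narrowest range in the set. Vldlr, a receptor for apolipoprotein E and for the signalling protein reelin, was at 79.4, 90.7, 89.7, 98.2 and 93.3 TPM, a mean of 90.3 ± 6.91 TPM (SD, n = 5). Replicate 1 held its lowest level, as it did for Clu.

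Ordered by mean TPM, the genes ran Apoe, Apod, Apoc1, Abca1, Lrp1, Clu, Vldlr, Abcg1 and Lpl. Each neighbouring pair was compared within libraries as a log2 ratio of TPM + 0.1, a scale that understates ratios of low genes, with a two-sided exact sign-flip test over the 5 libraries. That test cannot give a p below 0.063 and so cannot pass 0.05 here. Lrp1 and Clu did not differ beyond their spread, with a log2 ratio of 0.04 ± 0.17 (SD, n = 5; exact p = 0.8125) and Lrp1 higher in 3 of 5 libraries; without replicate 1 the ratio was -0.032. The other 7 pairs pointed the same way in 5 of 5 libraries, each with the smallest exact p of 0.063. The order itself was taken from these same 5 libraries, so these directions and p values describe the order and do not test it. Clu exceeded Vldlr by only 0.08 ± 0.07 on the log2 scale, and their TPM ranges overlapped. Ranges of Apoc1 and Abca1 also overlapped, and their log2 ratio lay between 0.01 in replicate 2 and 0.92 in replicate 5.

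The widest steps were Apoe over Apod, at 4.27 ± 0.41 (log2, SD, n = 5), and Abcg1 over Lpl, at 2.45 ± 0.17. Vldlr over Abcg1 was 1.60 ± 0.13 and Abca1 over Lrp1 was 0.33 ± 0.08 on the same scale. Apod over Apoc1 averaged 1.38 ± 0.61 and narrowed to 0.67 in replicate 5, against 2.10 in replicate 1. Order among the middle genes depends on how length and transcripts are treated. Summed over named transcripts alone, Abca1 over Lrp1 was -1.16. From reads of the named transcripts without length correction (CPM), Apoc1 over Abca1 was -3.53, Abca1 over Lrp1 -1.95 and Clu over Vldlr -1.16 on the log2 scale, the opposite directions.

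Apoc1, Lpl and Apod varied most between libraries, and Abca1 and Lrp1 least. The SD of log2(TPM + 0.1) was 0.41 for Apoc1, 0.29 for Lpl, 0.25 for Apod, 0.19 for Apoe, 0.17 for Abcg1, 0.15 for Clu, 0.11 for Vldlr, 0.055 for Abca1 and 0.034 for Lrp1. Its median was 0.17 over the 9 genes and 0.080 over the 13635 genes detected in every library. Among the 3439 genes with a mean of at least 50 TPM the median was 0.052, and the 7 genes of the set at that level had a median of 0.15.

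**Figure D2:**
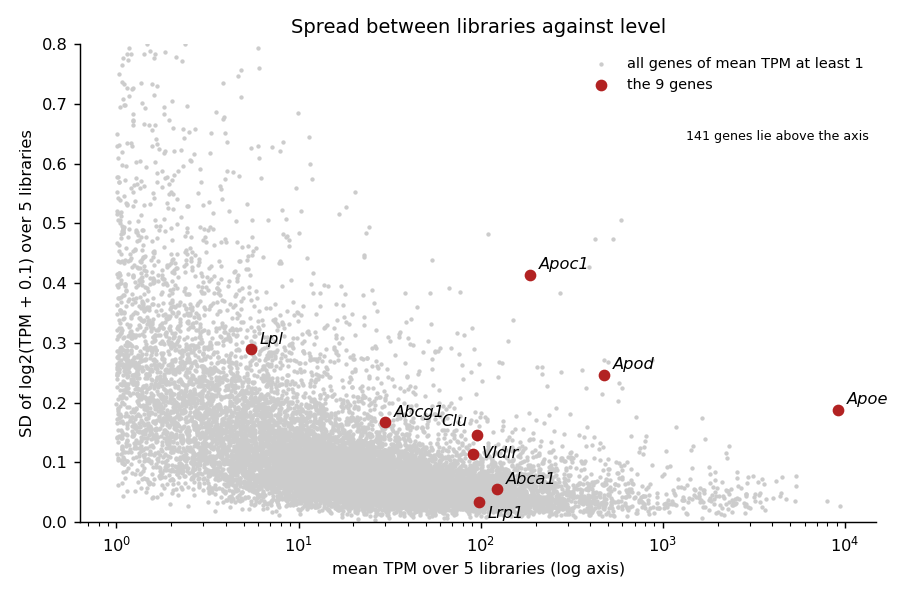
Mean TPM (log axis) against the SD of log2(TPM + 0.1) over 5 libraries, with all genes of mean TPM at least 1 in grey and the 9 genes in red. Apoe, Apod and Apoc1 lie above most genes of similar level, and Lrp1 and Abca1 lie within the grey band.

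An edgeR fit over 8871 genes, on estimated reads rounded to whole numbers, gave the spread left after counting error as a biological coefficient of variation (BCV, the SD relative to the level). For 6 of the 9 genes the named transcripts came within 10% of the gene's TPM in every library; Abca1, Clu and Vldlr did not meet that tolerance and were left out. The BCV was 0.284 ± 0.0741 for Apoc1, 0.199 ± 0.0539 for Lpl, 0.173 ± 0.0842 for Apod, 0.134 ± 0.0260 for Apoe, 0.116 ± 0.0266 for Abcg1 and 0.0306 ± 0.00493 for Lrp1 (jackknife SE over the 5 libraries). The first 5 lay above the fitted trend at their expression and Lrp1 lay below it, against 30.4% of all fitted genes above the trend. Apoc1 stood at percentile 98.96 of all fitted genes, Lpl at 96.1, Apod at 94.03, Apoe at 90.4, Abcg1 at 88.0 and Lrp1 at 46.6. These percentiles depend on the genes ranked. Without the filter on low counts (13789 genes) they were 74.9, 71.5, 69.7, 66.9, 65.2 and 37.5 in the same order. With DESeq2's dispersion, also over 13789 genes, they were 62.4, 52.6, 56.6, 52.3, 40.5 and 2.79. Leaving out replicate 1 alone brought the BCV of Apod to 0.0925.

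**Figure D3:**
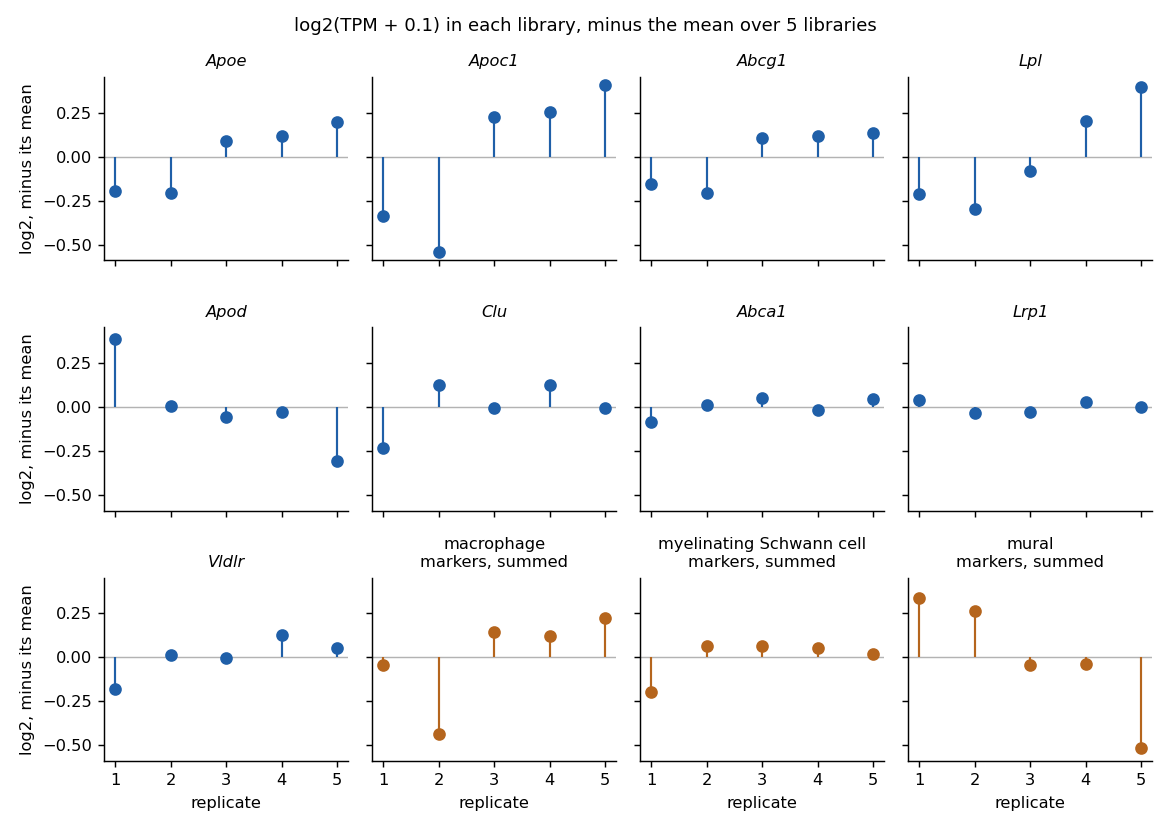
log2(TPM + 0.1) of each gene in replicates 1 to 5 minus its own mean (blue), with the summed TPM of 3 marker lists drawn the same way (brown). Apoe, Apoc1, Abcg1 and Lpl lie below their mean in replicates 1 and 2 and at their highest in replicate 5, and Apod lies at its highest in replicate 1 and its lowest in replicate 5.

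Apoe, Apoc1, Abcg1 and Lpl shared their low and high libraries. Replicates 1 and 2 held the lowest values of each of these genes and replicate 5 the highest. On the log2 scale, the value in replicate 2 minus the gene's own mean was -0.21 for Apoe, -0.54 for Apoc1, -0.21 for Abcg1 and -0.30 for Lpl. Replicate 5 lay above the mean by 0.20, 0.40, 0.14 and 0.39 for these genes in the same order. For Apod the values were 0.38 in replicate 1 and -0.30 in replicate 5. With 5 libraries no correlation is given.

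Summed macrophage markers shared the lowest library, replicate 2, and the highest, replicate 5, but not the low level in replicate 1. There the sum lay at -0.045 from its mean on the log2 scale, against -0.19 for Apoe, -0.34 for Apoc1, -0.15 for Abcg1 and -0.21 for Lpl. All 13 genes of the macrophage list, led by the complement genes C1qa, C1qc and C1qb, were detected, none was at 0, and they summed to 2085, 1589, 2371, 2335 and 2512 TPM in replicates 1 to 5. The sum was lowest in replicate 2 and highest in replicate 5, as were 12 and 10 of its 13 genes taken singly, while Cx3cr1 was highest in replicate 1. Divided by that sum, Apoe had an SD of log2 of 0.14, against 0.19 before, Apoc1 0.20 against 0.41, Lpl 0.18 against 0.29, and Abcg1 0.13 against 0.17. For Apod the same division widened the SD of log2 to 0.42, against 0.25 before, and it widened it for Abca1, Lrp1, Clu and Vldlr too, to between 0.25 and 0.33. Per unit of macrophage marker TPM, Apoe was 3.80, 4.94, 4.06, 4.21 and 4.14, highest in replicate 2. What part macrophage content has in the levels of these genes was not tested.

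Markers of satellite glia, fibroblasts, neurons and Schwann cells without myelin summed to steady levels. The 6 genes of the satellite glia list, glia that wrap sensory neuron bodies and are known for Apoe expression, were all detected and summed to between 627 and 673 TPM, led by Glul, Fabp7 and Cdh19. The 8 myelinating Schwann cell genes, Pmp22 and Mbp among them and all detected, summed to 5339 TPM in replicate 1 and to between 6204 and 6388 TPM in the others, so the library low in Clu and Vldlr was also the lowest for myelin genes. The 7 markers of Schwann cells without myelin, immature ones included, led by Gap43, S100b and Sox10, summed to between 3257 and 3410 TPM. The 8 fibroblast genes, led by Col1a2, Col3a1 and Col1a1, summed to between 1703 and 1749 TPM, and the 10 neuron genes, led by Prph, Tubb3 and Uchl1, to between 7009 and 7420 TPM. Both sums were also lowest in replicate 1, though by little, and so was Abca1. The low library was thus not particular to Clu, Vldlr and the myelin genes. Every gene of these lists was detected. Mural genes of vessel walls, led by Tagln, Acta2 and Pdgfrb, with 5 of 6 detected and Rgs5 not, summed to 377, 359, 290, 292 and 209 TPM, highest in replicate 1 and lowest in replicate 5, as Apod was. Tagln, Acta2 and Myh11 had the same highest and lowest libraries, while Pdgfrb was lowest in replicate 1, at 33.3 TPM there and between 35.8 and 39.1 TPM in the others. The part of these cells in the Apod, Clu and Vldlr levels was not tested.

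The adipocyte and hepatocyte lists held both detected genes and genes near 0, and the lymphocyte list held no detected gene. Of 6 adipocyte genes, Fabp4 (44.7 ± 10.97 TPM) and Cidec were detected, while Adipoq, Plin1 and Lep averaged 0.127, 0.0834 and 0.00876 TPM and Retn 0.925 TPM. The list summed to 40.5, 35.1, 45.5, 61.7 and 60.04 TPM, nearly all of it Fabp4, which macrophages also express. Of 4 hepatocyte genes, Serpina1 (78.5 ± 6.77 TPM) and Ttr were detected, and Alb and Fga averaged 0.0333 and 0.00788 TPM. Of 6 endothelial genes Cdh5, Tek and Egfl7 were detected and Cldn5, Kdr and Pecam1 were not, with a list sum of 24.6 to 27.6 TPM, and none of 5 lymphocyte genes (Cd3d, Cd3e, Cd79a, Ms4a1 and Nkg7) was detected.

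The genes whose library profile lay nearest to that of a member were found by the root mean square difference of centred log2(TPM + 0.1) over 5 libraries, searched among 9424 other genes of mean TPM at least 10. For Apoe the nearest were Cndp1 (0.0237), Abcg1 (0.0350), LOC100174910 (0.0359), Tf, the transferrin gene (0.0360), and Npl (0.0425). Abcg1 was thus the second nearest of 9424 genes to Apoe on this measure. The nearest to Abcg1 were Dusp22 (0.0226), Cndp1 (0.0259), Gm2a, a lysosomal lipid-binding protein gene (0.0279), Apoe (0.0350) and Lcp1, a leukocyte actin-bundling gene (0.0380).

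The nearest to Apoc1 were RGD1559482, Igsf7, Bcl2a1, Lst1 and Sost, with differences from 0.0633 to 0.0957. For Lpl, Acp5, the tartrate-resistant acid phosphatase of macrophages and osteoclasts, lay at 0.0274 and the next, RGD1564963, Cnih2, Tyrobp and Abhd1, at 0.0952 to 0.110. For Apod the nearest were Fhl2, Tmem64, Glis2, Thbs4 and Prelp, at 0.0477 to 0.0753. These likenesses rest on 5 points each and describe only these libraries.

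Most genes were read from a single dominant transcript. Of the TPM in transcripts named through RefSeq, the main transcript held 97.3% ± 0.125 for Apoe (SD, n = 5; 5 transcripts named), 96.2% ± 0.565 for Apod, 96.9% ± 1.37 for Apoc1, and 91.5% ± 1.28 for Lrp1, whose other transcript held 8.54%. Abcg1 and Lpl each had 1 named transcript. For Vldlr, 6 transcripts were named, and the main one, at 3417 bases, held 87.2% ± 1.03, followed by a longer one of 8202 bases at 6.65% ± 0.350. By reads rather than TPM the main Vldlr share was 73.4%, since longer transcripts give more reads at equal TPM.

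For Abca1 the named transcripts, of 10415 and 6801 bases, shared the named TPM nearly evenly, at 51.4% ± 2.59 and 48.6% ± 2.59 (SD, n = 5). They cover only part of the gene, since 64.4% of the Abca1 TPM lay in transcripts that carry no gene name in the table used. That unnamed share was 19.8% for Vldlr, 14.2% for Clu and 1.80% for Apod. For Clu, 1 of 2 named transcripts held nearly all of the named TPM.

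Transcript length bears on the Apoc1 level. Its main transcript of 431 bases had an effective length, the part a fragment can start in, of only 169.03 to 178.3 bases. On average 484 reads became 186 TPM for Apoc1, while 1465 reads became 29.9 TPM for Abcg1. In the GRCr8 table, Clu overlaps Scara3, which was at 5.54 TPM, and Lrp1 overlaps a locus at 0.112 TPM; the strand setting of the quantification is not given in the sources used here.

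**Figure D4:**
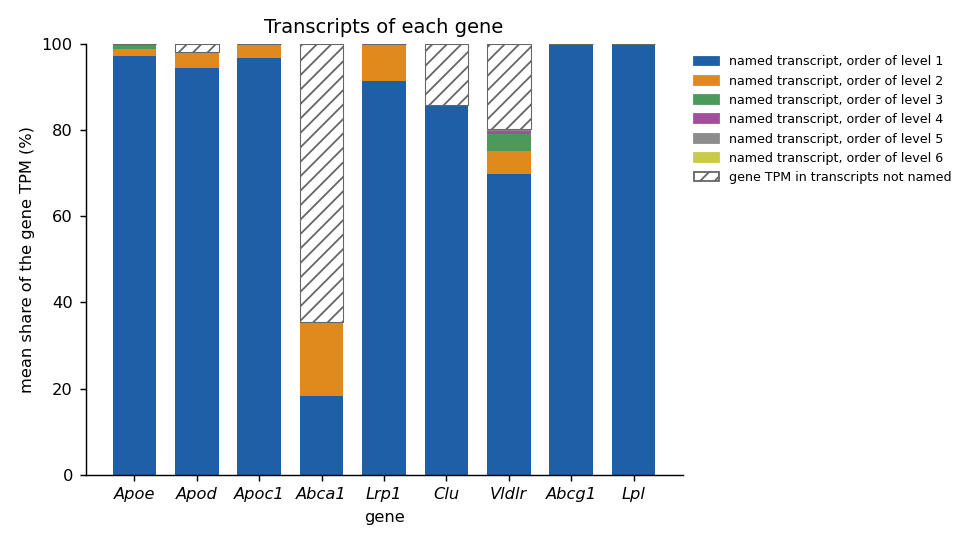
Mean share of each gene's TPM (%) held by its named transcripts, stacked in order of level, with the share in unnamed transcripts hatched. One transcript fills over 85% of the bar for 7 of the genes, and Abca1 is mostly hatched at 64.4%.

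Around these genes, 99 further genes of lipoprotein handling were examined in 8 lists, and 78 of them (78.8%) were detected, against 41.3% of all genes. The median level of the detected ones was 26.2 TPM, against 20.5 TPM for all genes detected in every library. The lists were chosen with earlier results of these data known, so both comparisons only describe them. The neighbours of Apoe in the genome, chosen by position, formed a list of their own. Of the other apolipoprotein genes 6 of 14 were detected. The highest were Apoo at 37.5 ± 1.60 TPM, Apoh at 25.4 ± 1.32 TPM and Apool at 24.4 ± 1.15 TPM (SD, n = 5), and Apoo and Apool encode mitochondrial proteins despite their names. The plasma lipoprotein genes Apoa1, Apoa2, Apoa4, Apoa5, Apob, Apoc2, Apoc3 and Apof were not detected. Apoa2 and Apoc3 had 0 reads, and a count of 0 still permits a level of 0.2195 TPM for Apoa2 and 0.141 TPM for Apoc3 (3 reads over all libraries).

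**Figure D5:**
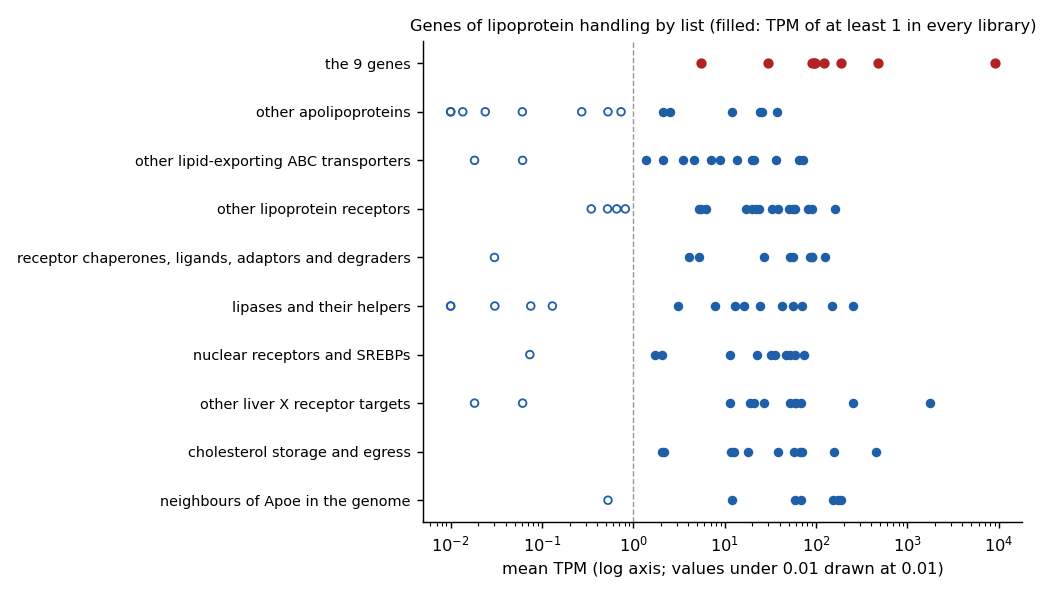
Mean TPM (log axis) of the 9 genes (red) and of each list of related genes (blue), filled where TPM was at least 1 in every library, with a dashed line at 1 TPM. Every list but the other apolipoproteins has more filled than open points.

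Apoe lies in a gene cluster with Apoc1, Apoc4 and Apoc2 on one side and Tomm40 on the other in the RefSeq table. Of the 7 neighbours listed, which include Apoc1, 6 were detected, the highest being Apoc1, Clptm1 at 174 ± 3.99 TPM and Bcam at 155 ± 6.98 TPM. Apoc4, next to Apoc1, was at 12.0 ± 3.02 TPM and Apoc2, the activator of Lpl, at 0.527 ± 0.388 TPM. Apoc4 had an SD of log2 of 0.38, close to that of Apoc1, against 0.033 for Tomm40 and 0.089 for Nectin2. The ratio of Apoc1 to Apoc4 was 15.6 ± 1.28 (SD, n = 5), and that of Apoe to Apoc1 was 50.7 ± 8.42.

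Of 14 other lipid-exporting ABC transporters 12 were detected, led by Abca8a at 71.4 ± 7.21 TPM, Abca3 at 64.2 ± 1.68 TPM and Abca2, a transporter of myelinating cells, at 36.8 ± 0.690 TPM. Abcg5 and Abcg8, the sterol exporter pair of liver and gut, were not. Of 19 other genes listed with the lipoprotein receptors 15 were detected, among them Scarb2 at 159 ± 3.47 TPM and Lrp10 at 81.9 ± 2.59 TPM. A place in this list does not mean that the product takes up lipoproteins, and this holds for Scarb2. Lrp1b, Lrp2, Olr1 and Sorl1 stayed below 1 TPM, at means of 0.346, 0.657, 0.816 and 0.521 TPM. Trem2, a microglial and macrophage receptor that binds apolipoprotein E, was at 58.2 ± 10.6 TPM. The other reelin receptor gene, Lrp8, was at 5.24 ± 0.270 TPM, while reelin itself (Reln) was at 85.8 ± 4.70 TPM.

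Receptor chaperones, ligands, adaptors and degraders were detected for 9 of 10 genes, led by the folding factor gene Mesd at 126 ± 2.94 TPM, the sorting adaptor gene Snx17 at 90.9 ± 3.32 TPM and Lrpap1 at 89.9 ± 3.19 TPM. Lrpap1, whose product escorts Lrp1 through the secretory pathway, stood near the level of its client, with a ratio of Lrp1 to Lrpap1 of 1.09 ± 0.0523 (SD, n = 5). Mylip, which marks these receptors for degradation, was at 27.0 ± 1.33 TPM.

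Of 15 lipase genes and helpers 10 were detected, led by the phospholipid transfer protein gene Pltp at 252 ± 26.2 TPM, Sel1l at 148 ± 10.8 TPM and the lysosomal lipase gene Lipa at 69.5 ± 3.57 TPM. Sel1l and Lmf1 (24.4 ± 1.45 TPM) serve the maturation of lipoprotein lipase, and Angptl4, its inhibitor, was at 16.1 ± 2.88 TPM. Gpihbp1, which holds the lipase on capillary walls, averaged 0.00825 TPM, and Lipc had 0 reads, with a floor of 0.0276 TPM. Lipg and Mttp were likewise not detected.

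Of 11 nuclear receptor and SREBP genes 10 were detected, led by Nr1h2, which encodes liver X receptor beta, at 74.4 ± 2.82 TPM, Srebf1 at 59.2 ± 3.15 TPM and Srebf2 at 51.6 ± 1.81 TPM, and Nr1h4 was not. Nr1h3, for liver X receptor alpha, was at 11.4 ± 0.950 TPM, so that Nr1h2 was 6.55 ± 0.613 times higher (SD, n = 5). Of 12 other liver X receptor targets 10 were detected, led by the desaturase gene Scd2 at 1782 ± 109 TPM, Pltp and the fatty acid synthase gene Fasn at 68.8 ± 1.54 TPM, and Abcg5 and Abcg8 were not. All 11 genes of cholesterol storage and egress were detected, led by the lysosomal cholesterol carrier gene Npc2 at 452 ± 23.4 TPM, the lipid droplet gene Plin2 at 157.5 ± 8.50 TPM and Lipa. Levels of Abca2, Abca3, Apool, Lmf1, Nr1h2 and Plin2 rest on the combined table, since their named transcripts gave 6.57, 7.78, 5.09, 0.694, 19.4 and 87.7 TPM. The same holds for the neuron marker Prph, at 2212 TPM against 445 TPM from named transcripts. It also holds for Tomm40 and Egfl7, whose named transcripts gave 0 TPM, and for Lrp10, which had none. Genes with smaller gaps are not listed.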

How the data were processed

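PolyA RNA was sequenced from 5 libraries of 1 group. Trim Galore 0.6.6, cutadapt 2.8, Salmon 1.5.1 and build mRatBN7.2 are named in the submitters' processing notes; their settings, and how strand was handled, were not stated in those notes as used here. The authors' deposited combined table holds gene TPM. Per the file headers, the deposited quantification files hold TPM, an estimated count of reads and lengths for 98811 transcripts.

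Transcripts were joined to genes by RefSeq accession without its version (GRCr8 table; 67330 named, 68.1%). Where named TPM came within 10% of gene TPM in every library (19270 genes), estimated counts were rounded and fitted with edgeR 4.0.16 (TMM, filterByExpr, intercept only, gene-wise dispersion with prior df 0). That setting was chosen on simulated data (8930 genes). Genes given a BCV of 0.15 and 0.3 came out at a median of 0.137 and 0.268, against 0.0711 and 0.127 with default shrinkage. The 8743 genes given 0.03, near the estimate of 0.0306 for Lrp1, came out at 0.0232, against 0.0412 with default shrinkage. How either setting does where BCV differs between genes as widely as in these libraries was not tested. Intervals and floors cover counting error only; a floor is 3 reads over 5 libraries, at the shortest named transcript.

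The members and lists were chosen with earlier results of these data known. The text names the 9 members, transcripts holding at least 5% of a member, the 3 highest genes of each list with those not detected, and the 5 nearest profiles of members whose BCV was above the trend. Some genes that this rule names are not reported here. Other genes were chosen after their values were seen.

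Alternatives covered the source of gene levels, pseudocounts, detection thresholds, normalization with DESeq2 1.42.0, low-count filters and leaving out each library.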

Additional observations from a re-analysis of the deposited data

Results flagged for a closer look

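Among 70 sets of 5 library values, 7 had a highest or lowest library far from the other 4, with a gap of more than 0.71 of the whole range; chance gives about 1 in 20. The share of the main Apod transcript stood apart in replicate 3 (gap 0.768 of the range), at 97.2% there and between 95.8% and 96.1% in the others. The main Clu transcript share stood apart in replicate 5 (gap 1), at 99.8% there and 100% in the others. The other named Clu transcript was at 0.209 TPM there and at 0 elsewhere, with a mean of only 0.891 reads per library. With 4 tied values a gap of 1 is certain, so the chance rate does not apply to this share. Replicate 1 stood apart as low for the summed myelinating Schwann cell markers (gap 0.825), for the hepatocyte list, which is nearly all Serpina1 (gap 0.816), and for Scd2 (gap 0.796), and high for Srebf1 (gap 0.747). Replicate 2 stood apart as high for the summed neuron markers (gap 0.7102). No gene of the 9 stood apart in its TPM.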

How the results depend on the processing

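No paired analysis was possible because all samples form 1 group. Against the alternatives, 5 values of the main results turned round; the others kept their direction, though not always their size. From named transcripts without length correction (CPM), log2 ratios turned round to -3.53 for Apoc1 over Abca1, -1.95 for Abca1 over Lrp1 and -1.16 for Clu over Vldlr, and widened to 3.55 for Lrp1 over Clu and 3.10 for Apod over Apoc1. From named transcripts with length correction, Abca1 over Lrp1 was already -1.16, with 64.4% of Abca1 TPM unnamed, and Apoc1 over Abca1 was 2.05. Leaving out each library, the BCV of Apod ranged from 0.0925 (without replicate 1) to 0.199. Leaving out each library, Lrp1 over Clu ranged from -0.032 (without replicate 1) to 0.077. With edgeR's default shrinkage, chosen after seeing the data, the BCV was 0.0912 for Apoe, 0.108 for Apod, 0.176 for Apoc1, 0.0434 for Lrp1, 0.0775 for Abcg1 and 0.134 for Lpl, and with DESeq2's dispersion 0.0758 for Abcg1 and 0.134 for Lpl; both draw genes toward a trend. By reads, the main transcript share was 62.1% for Abca1 and 73.4% for Vldlr. Restricting nearest profiles to genes of at least 50 TPM kept 1 of 5 for Apoe, 1 for Apod, 0 for Apoc1, 3 for Abcg1 and 1 for Lpl. Every gene that dropped out had a mean below 50 TPM, so these counts follow from the threshold. They do not measure how stable the likenesses are. Depth limits Apoc1 and Lpl most, with counting errors up to 5.70% and 7.60%.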
